A study of Mus musculus with 6 samples.

Results

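The genes of the proteins of the mitochondrial ribosome were read here on expression arrays of C2C12 cells, a mouse myoblast line, in which PARP2 was silenced. The members were taken by symbol (Mrpl or Mrps followed by a number) from the array annotation, and only from probe sets that name a single gene. This gave 77 of the 19938 genes measured, 48 named Mrpl (large subunit) and 29 named Mrps (small subunit), on 85 probe sets. The subunit was taken from the symbol, which need not be the place of the protein in the ribosome. A member with several probe sets was read from the one with the highest mean over all arrays. Mrpl53 is annotated only on a probe set that also names Ccdc142 and was therefore not among them.

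The mitochondrial ribosome is built from proteins encoded in the nucleus and from RNAs encoded by the mitochondrial DNA, and it makes the few respiratory chain subunits whose genes are still in the organelle. Its proteins are made in the cytosol, imported and assembled into a large subunit, which forms the peptide bonds, and a small subunit, which reads the mRNA. Some of them descend from bacterial ribosomal proteins, and others were added in the mitochondrial lineage. In muscle cells the respiratory chain supplies much of the energy, so mitochondrial translation is a part of their oxidative capacity.

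The 3 arrays of the shPARP2 group carry RNA of C2C12 cells that received lentiviruses coding a PARP2-specific shRNA, and the 3 arrays of the scPARP2 group that of cells with a scrambled shRNA from the same delivery. Both groups grew in high-glucose DMEM with fetal calf serum, and the silenced line was kept under puromycin. Each group is 1 cell line with 1 shRNA sequence, so that silencing of PARP2 and any other difference between the lines cannot be told apart. Whether the 3 samples of each line came from separate cultures is not given in the sources used here, so p-values cover only the variation among these samples, which may be technical. The values are log2 expression as deposited after RMA. On this scale a difference of 1 is a change of 2-fold.

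Parp2 itself read 8.94, 9.13 and 9.05 in scPARP2 and 7.86, 8.14 and 7.91 in shPARP2 cells, which left 47.6% of its signal (log2 fold change -1.07, adjusted p = 0.00103 from limma). Array medians ran from 7.04 to 7.18, with the lowest on shPARP2 replicate 2. Of 6 myoblast markers Myf5, Des, Cdh15 and Chrna1 were higher in shPARP2 cells, while Myod1 (8.89 to 10.19 over the 6 arrays) and Pax7 (7.06 to 7.23, near the array medians) did not pass. Of 14 markers of adipocytes, bone and cartilage, leukocytes, epithelium and endothelium, Cd68 passed the test, as lower. Of all genes 24% were called either way. The mean log2 signal of the 14 markers was 6.29 to 6.38 in scPARP2 and 6.18 to 6.36 in shPARP2 cells. Krt8 (mean 7.95 in both lines) and Cd68 (mean 8.10 in scPARP2 and 7.38 in shPARP2 cells) lay above the array medians.

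Most mitochondrial ribosomal protein genes did not pass the test, and those that did moved in both directions. Lines were compared by limma's moderated linear model, p-values were adjusted over all probe sets by the Benjamini-Hochberg method, and genes with an adjusted p under 0.05 were called. Of the 77 genes 13 fell and 5 rose, and 59 did not pass. These shares were 16.9% lower and 6.49% higher, where 11.6% of all genes measured were lower and 12.4% were higher. In either direction 23.4% of the members were called, against 24% of all genes. The members are bright on the array, and none lay under the 40th percentile of signal over all probe sets. Among the 13351 genes at or above it, 16.3% were called lower, 17.8% higher and 34.1% either way. The share of members called lower was thus close to that of these 13351 genes, and the share called higher was below it. The median percentile of the members was 76.9, and these genes were not matched to the members in signal. The median log2 fold change of the members was -0.09, beside -0.02 over all genes. In bulk RNA, fewer cells that express a gene and less of its RNA per cell cannot be told apart.

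The changes were small. Over the members the log2 fold change ran from -0.98 to 0.64, and 7 of them (9.09%) changed by at least 1.5-fold, as did 10.4% of all genes. For 29 members (37.7%) all shPARP2 arrays lay below all scPARP2 arrays, and for 11 (14.3%) they all lay above. Over all genes these shares were 21.4% and 20.7%. They were 64.4% and 3.39% among cytosolic ribosomal protein genes, and 45.7% and 22.9% among genes of respiratory complex I subunits. The shares were not counted over genes of like signal. Of the members that did not pass, log2 fold changes lay between -0.47 and 0.29. A limit of the precision is the spread of the shPARP2 arrays, whose median SD per member was 0.129 against 0.0474 in scPARP2 cells, much as over all genes (0.125 against 0.0613).

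**Figure D1:**
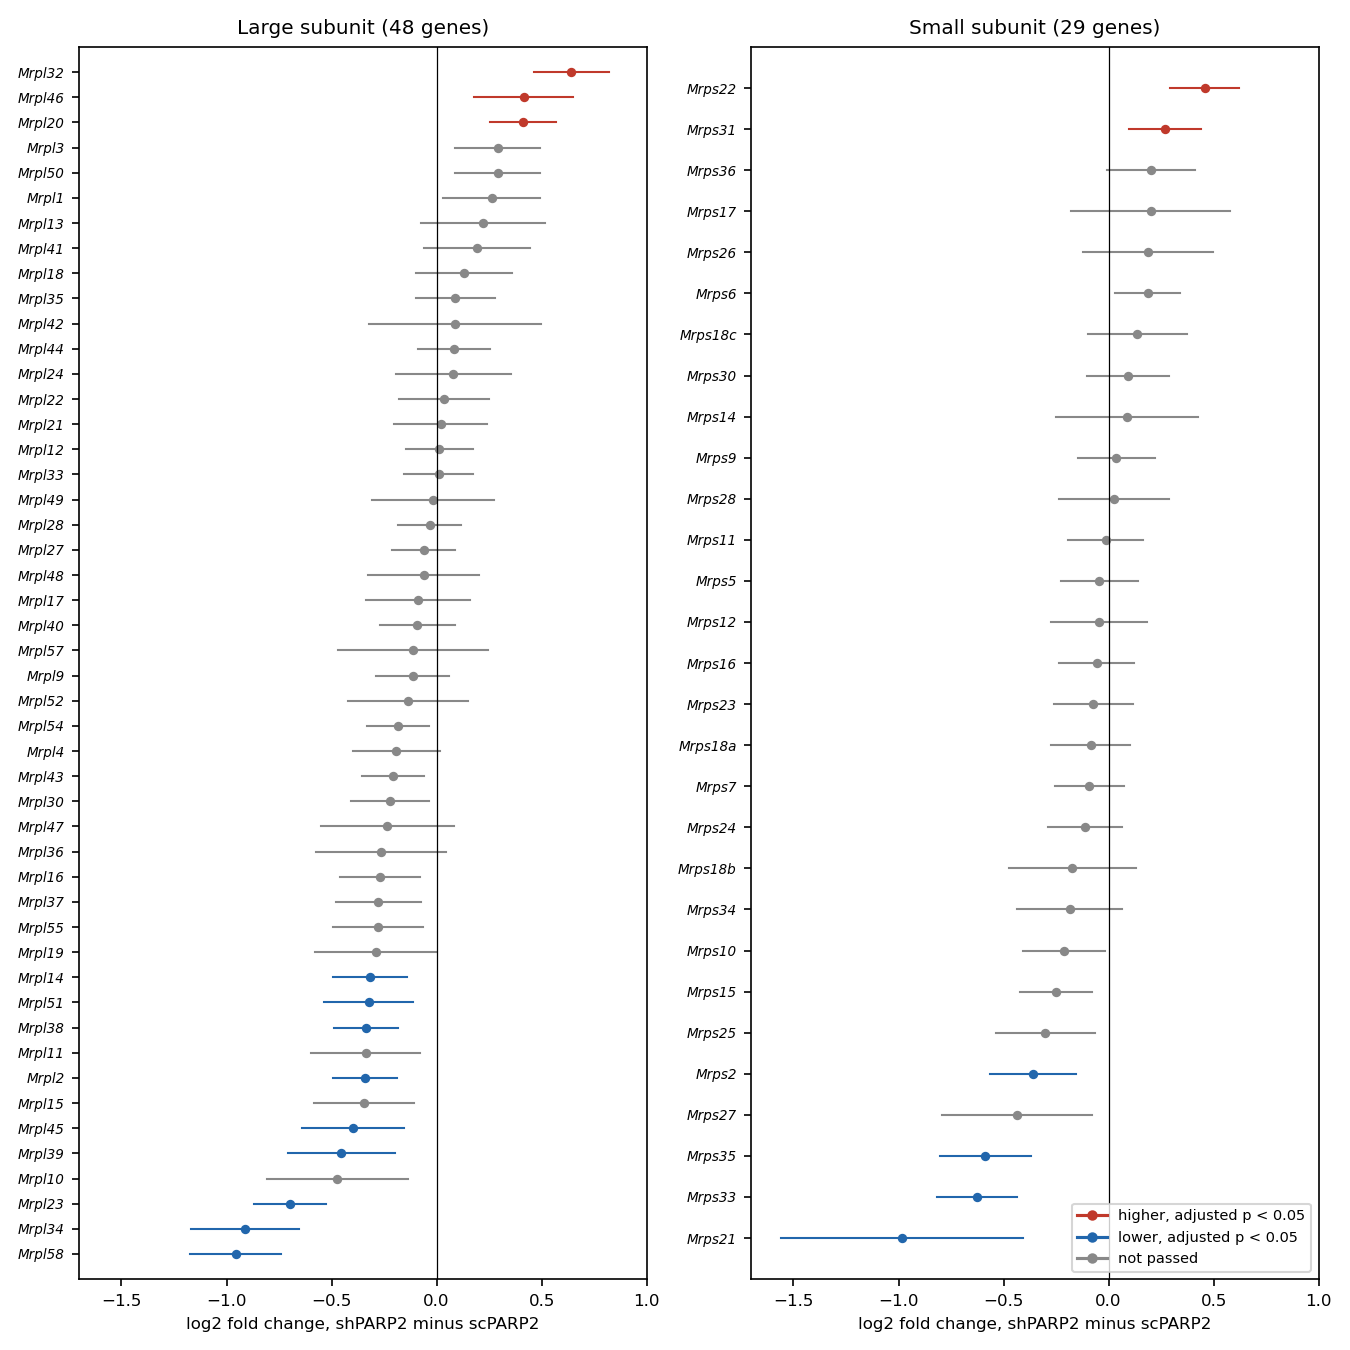
Log2 fold change between shPARP2 and scPARP2 cells (horizontal axis) of the 48 large and 29 small subunit genes, sorted by value. Points are fitted differences of 3 arrays against 3 and bars are 95% confidence intervals; 13 genes in blue were lower, 5 in red were higher, and the 59 grey genes did not pass the test.

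The promoters of the 3 members with the lowest and the 2 with the highest log2 fold change are shown because they carry sequence elements that many genes of mitochondrial proteins share. Sequences and start sites are those of RefSeq on the build GRCm38.p6, and capitals mark matches to the motifs searched. Each is the 120 bases before the start site. Mrps21 lies on the minus strand with this window at chr3:95871515-95871634, which overlaps the annotated gene C920021L13Rik. Mrpl58 lies on the plus strand at chr11:115403632-115403751, Mrpl34 on the plus strand at chr8:71464806-71464925, Mrps22 on the minus strand at chr9:98601680-98601799 and Mrpl32 on the minus strand at chr13:14613038-14613157.
Mrps21: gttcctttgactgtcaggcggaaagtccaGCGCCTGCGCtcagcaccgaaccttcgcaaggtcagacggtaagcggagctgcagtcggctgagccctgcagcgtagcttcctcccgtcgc
Mrpl58: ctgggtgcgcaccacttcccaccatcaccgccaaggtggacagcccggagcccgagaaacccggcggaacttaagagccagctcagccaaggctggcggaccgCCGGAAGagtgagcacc
Mrpl34: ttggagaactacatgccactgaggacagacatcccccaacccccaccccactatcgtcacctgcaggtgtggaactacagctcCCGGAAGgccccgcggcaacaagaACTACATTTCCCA
Mrps22: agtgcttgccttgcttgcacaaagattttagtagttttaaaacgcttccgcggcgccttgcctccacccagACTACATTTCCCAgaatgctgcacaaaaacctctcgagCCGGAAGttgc
Mrpl32: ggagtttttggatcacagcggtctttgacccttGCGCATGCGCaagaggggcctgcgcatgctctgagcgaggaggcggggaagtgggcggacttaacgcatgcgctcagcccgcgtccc
The capitals in Mrpl58 are a match to the core of the ETS family motif (CCGGAAG). Mrpl34, which fell, and Mrps22, which rose, both hold this core and, as the longer capitals, the motif of ZNF143. In Mrps21, which fell, and Mrpl32, which rose, the capitals are the motif of NRF-1 (read on the opposite strand in Mrps21), a factor known to act on nuclear genes of the respiratory chain and unrelated to NRF2.

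Of the 77 members 68 matched the promoter table, with 74 windows of 300 bases (250 before and 50 after a start site). Motifs were searched on both strands. The ETS core was in 33.8% of these windows and in 8.86% of all 32851 promoter windows, or 11.6% of the 21262 windows of protein-coding genes. The NRF-1 motif was in 17.6% of member windows, 4.60% of all and 6.38% of protein-coding ones. The start of the YY1 motif (AAGATGGC) was in 16.2%, 2.75% and 3.05%. The ZNF143 motif was in 6.76%, 1.47% and 2.07%; it was added after the sequences had been read. The members that fell had 13 windows of 11 genes. Of these windows 5 held the ETS core and 4 the NRF-1 motif, and among the 5 windows of members that rose 1 held each. The YY1 letters were in 0 of the 13 windows of members that fell, in 1 of the 5 windows of members that rose and in 11 of the 56 windows of members that did not pass. A match is a description of the sequence and shows no binding.

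In the large subunit 9 of 48 genes (18.8%) fell, 3 (6.25%) rose and the remaining 36 did not pass. Of genes at or above the 40th percentile of signal 16.3% fell and 17.8% rose, but these were not matched to the subunit in signal. The median log2 fold change of the subunit was -0.11. Below 0 lay 31 of the log2 fold changes, and above it 17. The genes that fell were Mrpl58, Mrpl34, Mrpl23, Mrpl39, Mrpl45, Mrpl2, Mrpl38, Mrpl51 and Mrpl14, and those that rose were Mrpl32, Mrpl46 and Mrpl20. The number of genes that fell depended on single arrays. It was 3 whichever scPARP2 array was left out, beside 6.42% to 6.78% of all genes in the same fits. It was 5 without shPARP2 replicate 1 and 7 without shPARP2 replicate 3, beside 8.11% and 10.8% of all genes. Without shPARP2 replicate 2 it was 17, beside 13.6% of all genes. The number that rose was between 2 and 4 in these fits, beside 6.97% to 12.3% of all genes. With each array centred on its median, 4 genes fell and 3 rose, beside 8.73% and 11.98% of all genes.

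Mrpl58, a peptidyl-tRNA hydrolase within the large subunit that releases chains from stalled ribosomes, had the lowest log2 fold change of the subunit. It read 9.96, 10.05 and 9.97 on the scPARP2 arrays and 9.03, 9.19 and 8.90 on the shPARP2 arrays. The lowest scPARP2 array was far above the highest shPARP2 array, and 51.5% of the signal was left (log2 fold change -0.96, standard error 0.09, adjusted p = 0.00111 from limma). Mrpl34, the counterpart of the bacterial protein L34, read 10.44, 10.54 and 10.47 in scPARP2 and 9.62, 9.74 and 9.36 in shPARP2 cells. Again the lines did not overlap, and 53.1% was left (log2 fold change -0.91, standard error 0.11, adjusted p = 0.00236 from limma).

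Mrpl23, which lies beside the exit of the tunnel for the nascent chain, read 11.48, 11.45 and 11.49 in scPARP2 and 10.72, 10.88 and 10.72 in shPARP2 cells (log2 fold change -0.70, adjusted p = 0.00149 from limma). Its other probe set gave -0.71 (adjusted p = 0.0018 from limma), so that both fell. RefSeq lists a pseudogene, Mrpl23-ps1, and which copy a probe set reads was not tested. The calls of Mrpl58, Mrpl34 and Mrpl23 held in each of the 13 alternatives run for single genes, which left out each array in turn or changed the scaling, the filter, the variance model or the block.

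The other genes of the large subunit that fell changed less. Mrpl39 read 10.87, 10.97 and 10.82 in scPARP2 and 10.32, 10.64 and 10.34 in shPARP2 cells (log2 fold change -0.45, adjusted p = 0.0287 from limma). Mrpl45, which lies at the tunnel exit and ties the ribosome to the inner membrane, read 8.63, 8.68 and 8.62 in scPARP2 and 8.23, 8.44 and 8.08 in shPARP2 cells (log2 fold change -0.40, adjusted p = 0.0397 from limma). Mrpl2 is a core protein near the site of peptide bond formation. It read 9.46, 9.46 and 9.42 in scPARP2 and 9.04, 9.15 and 9.12 in shPARP2 cells (log2 fold change -0.34, adjusted p = 0.0127 from limma). Mrpl38, a protein without a bacterial counterpart, read 9.80, 9.85 and 9.80 in scPARP2 and 9.45, 9.54 and 9.46 in shPARP2 cells (log2 fold change -0.34, adjusted p = 0.014 from limma). Mrpl14, a bacterial-type protein at the face between the subunits, read 9.48, 9.50 and 9.53 in scPARP2 and 9.20, 9.27 and 9.09 in shPARP2 cells (log2 fold change -0.32, adjusted p = 0.0274 from limma). For each of these 5 genes the lines did not overlap. All 5 calls ended whichever scPARP2 array was left out, and those of Mrpl39, Mrpl45 and Mrpl14 also without shPARP2 replicate 1; without shPARP2 replicate 3 those of Mrpl39 and Mrpl45 ended. The highest adjusted p without an array was 0.109 for Mrpl39, 0.134 for Mrpl45, 0.0661 for Mrpl2, 0.0733 for Mrpl38 and 0.121 for Mrpl14. Centring the arrays ended the calls of Mrpl39, Mrpl45, Mrpl38 and Mrpl14, and the replicate block those of Mrpl45, Mrpl2, Mrpl38 and Mrpl14.

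Mrpl51 was called on only 1 of its probe sets. The brighter one (10475360) read 9.52, 9.68 and 9.54 in scPARP2 and 9.20, 9.39 and 9.18 in shPARP2 cells (log2 fold change -0.32, adjusted p = 0.0494 from limma). The other (10541873) had one of -0.10 (adjusted p = 0.541 from limma), and its lines overlapped. RefSeq lists a pseudogene of this gene too. The call of the brighter probe set ended whichever array but shPARP2 replicate 2 was left out, with adjusted p-values up to 0.173, and with the mean of both probe sets.

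Mrpl32 rose most among all members. Its protein has to be trimmed by a protease of the inner membrane before it can join the large subunit. It read 8.94, 9.07 and 8.97 in scPARP2 and 9.63, 9.71 and 9.56 in shPARP2 cells, 1.56-fold more (log2 fold change 0.64, standard error 0.07, adjusted p = 0.00221 from limma). Mrpl20, a bacterial-type protein, read 9.32, 9.30 and 9.30 in scPARP2 and 9.64, 9.75 and 9.76 in shPARP2 cells (log2 fold change 0.41, adjusted p = 0.00708 from limma). In both genes each shPARP2 array was above every scPARP2 array, and both calls held whichever array was left out.

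Mrpl46, a protein added in the mitochondrial lineage, read 7.69, 7.86 and 7.74 in scPARP2 and 8.12, 8.07 and 8.35 in shPARP2 cells (log2 fold change 0.41, adjusted p = 0.0303 from limma). Its call ended whichever scPARP2 array was left out, and also without shPARP2 replicate 1 (adjusted p up to 0.115). Its start site lies 42 bases from that of Mrps11, a small subunit gene on the opposite strand. Mrps11 read 8.51, 8.50 and 8.46 in scPARP2 and 8.42, 8.59 and 8.42 in shPARP2 cells, so that the lines overlapped (log2 fold change -0.01, 95% confidence interval -0.19 to 0.16, adjusted p = 0.936 from limma). The difference between these neighbours was not tested.

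Mrpl10, the stalk base protein, had the most negative log2 fold change of the members that did not pass. It read 10.94, 11.03 and 10.99 in scPARP2 and 10.53, 10.78 and 10.23 in shPARP2 cells (log2 fold change -0.47, adjusted p = 0.0647 from limma), and it passed without shPARP2 replicate 2 (adjusted p = 0.0161 from limma). Mrpl12, which forms the stalk on Mrpl10, read 10.47, 10.41 and 10.51 in scPARP2 and 10.49, 10.52 and 10.41 in shPARP2 cells. The lines overlapped, and the log2 fold change was 0.01 (95% confidence interval -0.15 to 0.17). Mrpl12 was chosen after its values had been seen. The dimmest genes of the subunit, Mrpl22 and Mrpl44, lay at the 55.6th and 58.7th percentile of signal and did not pass.

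In the small subunit 4 of 29 genes fell (13.8%) and 2 rose (6.90%), while 23 did not pass the test. Of genes at or above the 40th percentile of signal 16.3% fell and 17.8% rose, and of all genes 11.6% and 12.4%. The median log2 fold change was -0.06, with 18 values below 0 and 11 above. The genes that fell were Mrps21, Mrps33, Mrps35 and Mrps2, and those that rose were Mrps22 and Mrps31. The number of genes that fell was 2 with any scPARP2 array left out, beside 6.42% to 6.78% of all genes, and 2 without shPARP2 replicate 1, beside 8.11%. It was 7 without shPARP2 replicate 2 and 4 without shPARP2 replicate 3, beside 13.6% and 10.8% of all genes. The number that rose was 1 whichever array was left out, beside 6.97% to 12.3% of all genes. With each array centred on its median, 2 genes fell and 1 rose, beside 8.73% and 11.98% of all genes.

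Mrps21, the counterpart of the bacterial protein S21, had the lowest log2 fold change of all members and the widest spread. It read 11.13, 11.31 and 11.15 in scPARP2 and 10.24, 10.70 and 9.70 in shPARP2 cells. The shPARP2 arrays were all lower than the scPARP2 arrays but differed from each other by as much as the lines did (log2 fold change -0.98, standard error 0.24, adjusted p = 0.0336 from limma). This call ended whichever scPARP2 array was left out, and also without shPARP2 replicate 1 (adjusted p up to 0.11).

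Mrps33, a protein without a bacterial counterpart, read 9.70, 9.83 and 9.67 in scPARP2 and 9.01, 9.16 and 9.16 in shPARP2 cells, so that 64.8% of the signal was left (log2 fold change -0.63, standard error 0.08, adjusted p = 0.00323 from limma). Its dimmer probe set fell too (log2 fold change -0.58, adjusted p = 0.0071 from limma); RefSeq lists a pseudogene of Mrps33. Mrps35 read 8.80, 8.88 and 8.84 in scPARP2 and 8.09, 8.35 and 8.33 in shPARP2 cells (log2 fold change -0.59, adjusted p = 0.00626 from limma). Both calls held whichever array was left out. Mrps2, a bacterial-type protein, read 9.96, 9.99 and 10.01 in scPARP2 and 9.66, 9.74 and 9.48 in shPARP2 cells (log2 fold change -0.36, adjusted p = 0.0304 from limma), and its call ended whichever scPARP2 array was left out, and also without shPARP2 replicate 1 (adjusted p up to 0.118).

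Mrps22, which is mutated in an inherited deficiency of oxidative phosphorylation, rose from 8.79, 8.84 and 8.86 in scPARP2 to 9.26, 9.22 and 9.37 in shPARP2 cells. The lines did not overlap, and the change was 1.37-fold (log2 fold change 0.46, standard error 0.07, adjusted p = 0.00594 from limma). It held whichever array was left out. Mrps31 read 8.78, 8.73 and 8.70 in scPARP2 and 8.95, 9.11 and 8.97 in shPARP2 cells (log2 fold change 0.27, adjusted p = 0.0463 from limma). Its call ended whichever array was left out, with adjusted p-values from 0.0573 to 0.18.

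The paralogs Mrps18a, Mrps18b and Mrps18c, which take different places in the ribosome, did not pass the test. Mrps18a had a log2 fold change of -0.09 (95% confidence interval -0.27 to 0.10), Mrps18b one of -0.17 (-0.48 to 0.13) and Mrps18c one of 0.14 (-0.10 to 0.37). Mrps6, among the brightest of the subunit, had a log2 fold change of 0.19 (adjusted p = 0.102 from limma), with each shPARP2 array above every scPARP2 array. Mrps36, whose product has since been assigned to the alpha-ketoglutarate dehydrogenase complex, was the dimmest member, at the 44.9th percentile of signal. It had a log2 fold change of 0.20 (adjusted p = 0.187 from limma), and RefSeq lists 3 pseudogenes of it, so that the copy its probe sets read is not known. Mrps12, the next dimmest of the subunit, did not pass either.

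**Figure D2:**
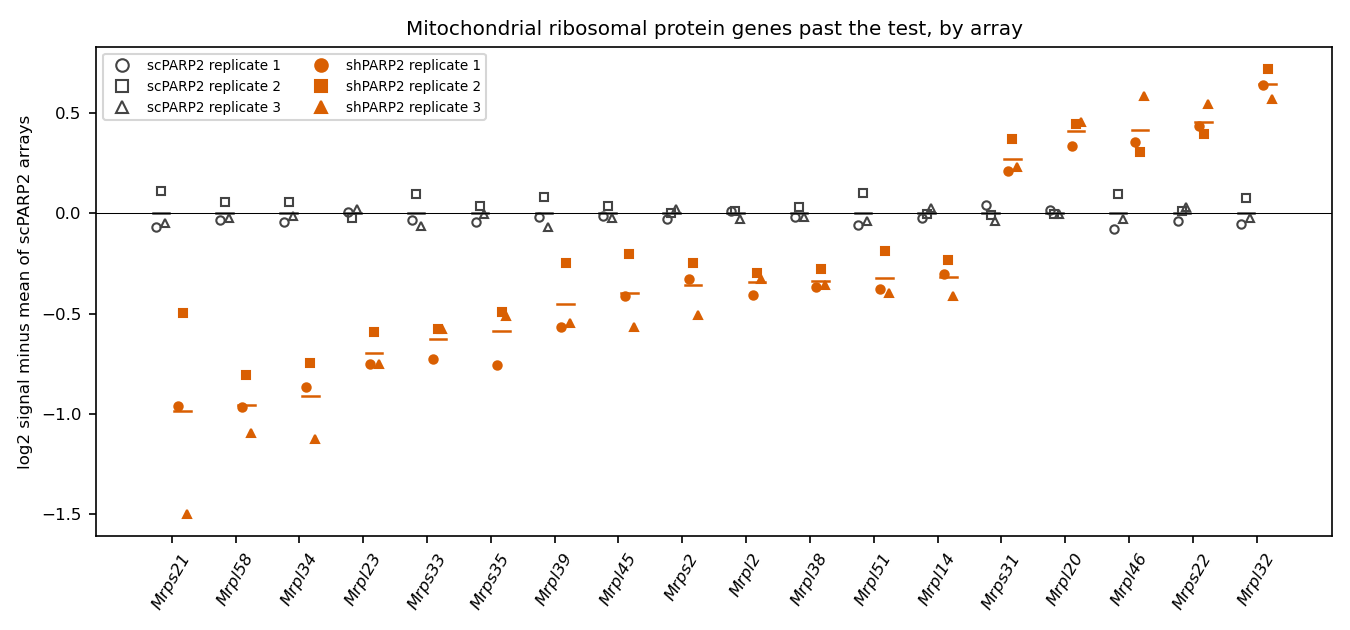
Log2 signal of the 18 members past the test, 1 symbol per array, after subtracting the scPARP2 mean of each gene (vertical axis), with open symbols for scPARP2, filled ones for shPARP2, and bars for the mean of 3. In the 13 genes that fell, shPARP2 replicate 2 (filled squares) lies closest to the scPARP2 arrays, and Mrps21 has the widest spread.

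The shPARP2 arrays did not place the members evenly. In all 13 members that fell, shPARP2 replicate 2 read higher than the other two shPARP2 arrays and so lay nearest to the scPARP2 arrays, and the lowest array was replicate 1 in 6 genes and replicate 3 in 7. In the 5 members that rose, replicate 2 was the highest shPARP2 array in 2 and the lowest in 2. Of all 2308 genes that fell it was the highest in 62.2%, and of all 2469 genes that rose in 48.7%. The median difference from the scPARP2 mean over the members was -0.02 on this array, beside -0.11 and -0.13 on replicates 1 and 3. Over all genes it was -0.08 on this array and 0.01 on each of the others. Without regard to sign, the median difference over all genes was largest on this array (0.209, against 0.160 and 0.169). Over the members it was smallest there, with 0.169, 0.147 and 0.242 on replicates 1, 2 and 3. By subunit it was 0.202, 0.153 and 0.326 in the large and 0.119, 0.145 and 0.205 in the small one. No label sets this sample apart from the other two, and no record of batches was in the sources used here.

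**Figure D3:**
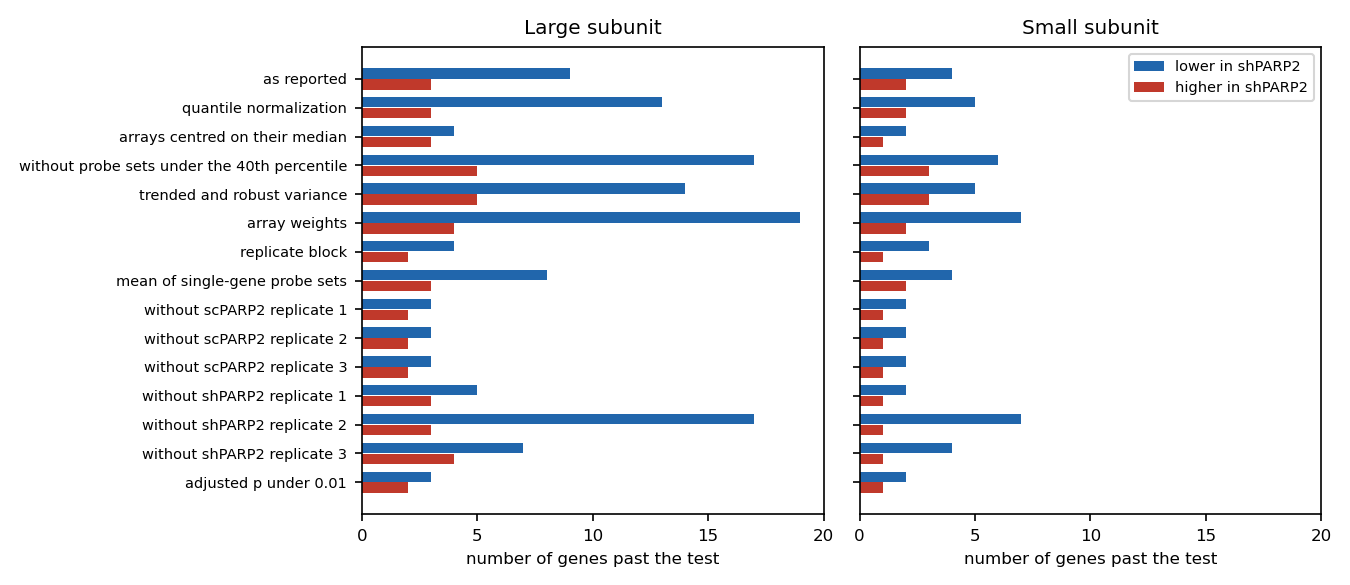
Number of genes past the test (horizontal axis) that were lower (blue) or higher (red) in shPARP2 cells, for the large subunit (left) and the small subunit (right), as reported and under each alternative. In the large subunit the genes that fell numbered from 3 with any 1 scPARP2 array left out to 19 with arrays weighted by quality, and more genes fell than rose in each fit shown. Of all genes 6.42% to 6.78% fell with 1 scPARP2 array left out and 16.3% with array weights.

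Proteins of bacterial type and those added in the mitochondrial lineage were both among the genes that moved. Of all genes 11.6% fell and 12.4% rose, and of genes at or above the 40th percentile of signal 16.3% and 17.8%. In the large subunit, 4 of 29 bacterial-type genes fell (13.8%) and 2 rose (6.90%). Of its 18 mitochondria-specific genes 5 fell (27.8%) and 1 rose (5.56%). In the small subunit, 2 of 16 bacterial-type genes fell (12.5%) and 0 rose (1 was higher at an unadjusted p under 0.05 in limma). Of its 9 mitochondria-specific genes 2 fell and 2 rose (22.2% each). The median log2 fold changes were -0.09 and -0.12 in the large and -0.05 and -0.19 in the small subunit. Mrpl55, Mrps18a, Mrps18b, Mrps30 and Mrps36 were not assigned to either class. These classes were not tested against each other.

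Some mitochondrial ribosomal proteins carry other symbols. Gadd45gip1, a large subunit protein also known as CRIF1 that helps to insert new chains into the inner membrane, read 9.54, 9.60 and 9.46 in scPARP2 and 10.46, 10.47 and 10.49 in shPARP2 cells. It rose 1.91-fold (log2 fold change 0.94, standard error 0.07, adjusted p = 0.000393 from limma). This call held whichever array was left out. The highest value of a member was the 0.64 of Mrpl32, and the difference between these genes was not tested. Dap3, a GTP-binding protein of the small subunit, had a log2 fold change of -0.22 (adjusted p = 0.0829 from limma). Ptcd3 and Chchd1, also of the small subunit, had log2 fold changes of 0.02 and 0.22 and did not pass.

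The genes that build, start and feed the mitochondrial ribosome were divided as well. Over 4 related lists with 72 genes measured, 14 fell (19.4%) and 11 rose (15.3%). Their median log2 fold change was -0.09 and their median percentile of signal 71.2. Of all genes 11.6% fell and 12.4% rose, and of genes at or above the 40th percentile 16.3% and 17.8%. These shares apply to each list below as well. With 1 scPARP2 array left out 4 or 5 of the 72 genes fell and 5 or 6 rose, beside 6.42% to 6.78% and 6.97% to 7.47% of all genes. Without shPARP2 replicate 1 6 genes fell, beside 8.11% of all genes. With each array centred on its median 6 fell and 10 rose, beside 8.73% and 11.98% of all genes.

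Of 26 genes for assembly of the mitochondrial ribosome and modification of its RNA, 4 fell (15.4%) and 5 rose (19.2%). With any 1 scPARP2 array left out, 1 or 2 fell and 1 rose. Malsu1, which binds the subunit protein Mrpl14 and keeps the subunits from joining too early, read 10.34, 10.37 and 10.40 in scPARP2 and 9.53, 9.70 and 9.80 in shPARP2 cells (log2 fold change -0.69, adjusted p = 0.003 from limma). Mrpl14 fell too, by 0.32. Nsun4, an RNA methyltransferase, and Mterf4, its partner in late assembly, went opposite ways. Nsun4 had a log2 fold change of 0.47 (adjusted p = 0.00835 from limma) and Mterf4 one of -0.39 (adjusted p = 0.01 from limma). The GTPase gene Gtpbp10 had one of 0.57 (adjusted p = 0.0315 from limma). The call of Mterf4 ended without scPARP2 replicate 2 or 3 (adjusted p up to 0.0552), and that of Gtpbp10 with any 1 scPARP2 array or shPARP2 replicate 3 left out (adjusted p up to 0.108).

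Of 15 translation factors 3 fell (20%) and 0 rose in limma, with 1 higher at an unadjusted p under 0.05. Oxa1l, the insertase that places new chains into the inner membrane, read 11.67, 11.74 and 11.73 in scPARP2 and 11.09, 11.20 and 10.92 in shPARP2 cells (log2 fold change -0.64, adjusted p = 0.00382 from limma). Mrrf, which recycles ribosomes after termination, had a log2 fold change of -0.60 (adjusted p = 0.00188 from limma). Mtfmt, which formylates the initiator tRNA, had one of -0.43 (adjusted p = 0.0203 from limma), and its call ended whichever scPARP2 array was left out, and also without shPARP2 replicate 1 or 3 (adjusted p up to 0.0807). Tufm, the elongation factor that delivers tRNAs and chosen after its value was seen, had a log2 fold change of -0.01 (95% confidence interval -0.23 to 0.21).

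Of 19 genes for charging mitochondrial tRNAs 5 fell (26.3%) and 1 rose (5.26%). With any 1 scPARP2 array or shPARP2 replicate 1 left out, 1 fell and 1 rose. The synthetase genes Pars2 and Wars2 had log2 fold changes of -0.47 and -0.40 (adjusted p = 0.0164 and 0.00765 from limma), and Yars2 had one of 0.57 (adjusted p = 0.00475 from limma). Gatc, a subunit of the enzyme that makes glutaminyl-tRNA, had one of -0.37 (adjusted p = 0.0204 from limma). Its partner Gatb had one of -0.31 (adjusted p = 0.0359) and its catalytic partner Qrsl1 one of -0.02 (adjusted p = 0.899), both chosen after their values were seen. The calls of Pars2, Gatc and Gatb ended whichever scPARP2 array was left out, and also without shPARP2 replicate 1 (adjusted p up to 0.0721, 0.0895 and 0.131), and that of Gatb also without shPARP2 replicate 3, while those of Wars2 and Yars2 held whichever array was left out.

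Of 12 genes for transcription and processing of mitochondrial RNA 5 rose (41.7%) and 2 fell (16.7%). With any 1 scPARP2 array left out, 3 or 4 rose. Trmt10c, a subunit of the RNase P that frees mitochondrial tRNAs, read 8.95, 9.11 and 9.05 in scPARP2 and 9.72, 9.83 and 9.89 in shPARP2 cells (log2 fold change 0.78, adjusted p = 0.00148 from limma). The other subunits of this enzyme went the opposite way. Hsd17b10 had a log2 fold change of -0.40 (adjusted p = 0.0152 from limma) and Prorp one of -0.47 (adjusted p = 0.0388 from limma); both were chosen after their values were seen. Elac2, which trims the other end of the tRNAs, rose by 0.51 (adjusted p = 0.00277 from limma). Mtpap, the poly(A) polymerase, had a log2 fold change of 0.55 (adjusted p = 0.00348 from limma) and Tfb2m, a transcription factor, one of 0.51 (adjusted p = 0.0113 from limma). The calls of Trmt10c, Elac2 and Mtpap held whichever array was left out, and that of Tfb2m ended without scPARP2 replicate 1 or 3 (adjusted p up to 0.0556). Those of Hsd17b10 and Prorp ended whichever scPARP2 array was left out, and also without shPARP2 replicate 1 (adjusted p up to 0.0711 and 0.121), and that of Prorp also without shPARP2 replicate 3.

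**Figure D4:**
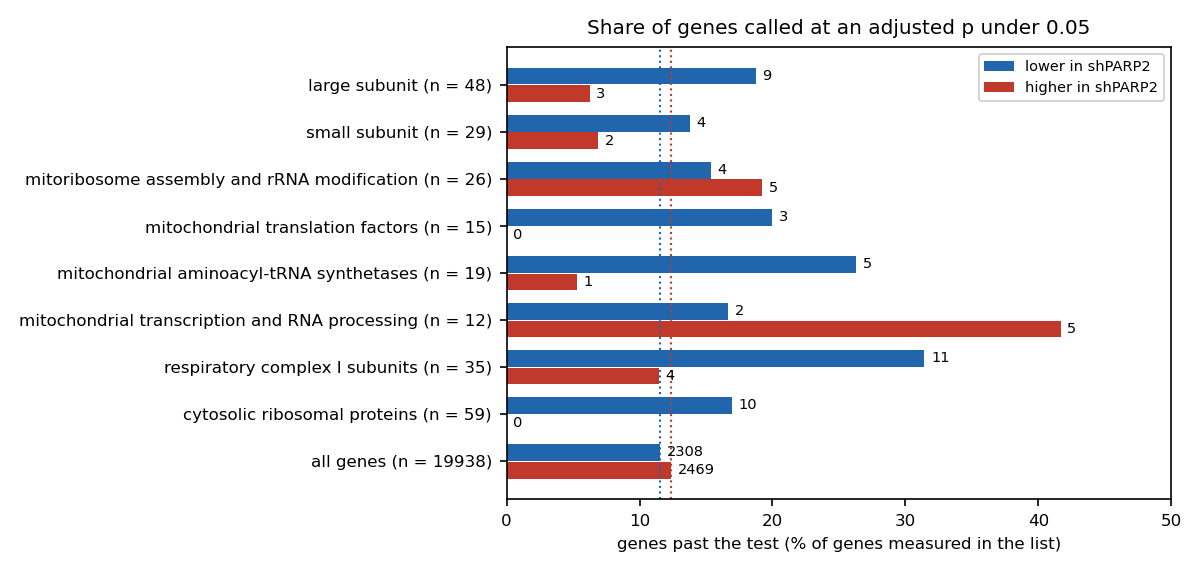
Share of genes called lower (blue) and higher (red) in shPARP2 cells, as a percentage of the genes measured in each list (horizontal axis); figures beside the bars are numbers of genes and dotted lines are the shares over all genes, 11.6% lower and 12.4% higher. Both subunits lie above the lower line and below the higher line. Of genes at or above the 40th percentile of signal 16.3% fell. The large subunit (18.8%) lies above that share and the small subunit (13.8%) below it. The list of mitochondrial transcription and RNA processing has the highest share of genes that rose, 5 of 12.

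The members were set beside the ribosome of the cytosol and respiratory complex I, some of whose subunits are made on the mitochondrial ribosome. Of 59 cytosolic ribosomal protein genes 10 fell (16.9%) and 0 rose in limma (1 was higher at an unadjusted p under 0.05). Their median log2 fold change was -0.17, and none changed by 1.5-fold. Their median percentile of signal was 97.6, but genes taken by symbol included dim ones such as Rpl39l (percentile 11.0) and Rpl3l (27.3). Of 35 complex I subunit genes 11 fell (31.4%) and 4 rose (11.4%). Their median log2 fold change was -0.14 and their median percentile 83.1. Of all genes 11.6% fell and 12.4% rose, and of genes at or above the 40th percentile of signal 16.3% and 17.8%. Without shPARP2 replicate 3 the cytosolic genes that fell numbered 20, with the trended and robust variance 27, and with 1 scPARP2 array left out 3 to 5. Of all genes 10.8%, 12.9% and 6.42% to 6.78% fell in these fits. For complex I, 6 fell and 1 or 2 rose with 1 scPARP2 array left out. The groups were not tested against each other.

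Some members lie head to head with another gene. Of the 68 members in the promoter table, 21 (30.9%) have the start site of another protein-coding gene on the opposite strand at most 500 bases upstream, so that both are read away from each other, as do 7.53% of all 17491 protein-coding genes in it. For 18 of these members the partner was measured and was no member itself. Of these 18 partners 2 fell and the other 16 did not pass, where 11.6% of all genes fell and 24% were called either way. Of their members 3 were called, and in 11 pairs both log2 fold changes had the same sign. Mrpl14 and its neighbour Tmem63b, a membrane protein gene, both fell, with log2 fold changes of -0.32 and -0.61 (adjusted p = 0.0274 and 0.00341 from limma). Ndufb5, a complex I subunit beside Mrpl47, fell too (log2 fold change -0.42, adjusted p = 0.00966 from limma), while Mrpl47 had a log2 fold change of -0.23 and did not pass. Mrpl2 fell, while its neighbour Klc4, a kinesin light chain, had a log2 fold change of 0.11 (adjusted p = 0.383 from limma). Mrpl32 rose, while its neighbour Psma2, a proteasome subunit, had a log2 fold change of 0.21 (adjusted p = 0.0739 from limma).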

How the data were processed

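RNA of 3 scPARP2 and 3 shPARP2 samples was hybridised to Affymetrix Mouse Gene 1.0 ST arrays, 1 colour and 1 array per sample. The deposited table holds log2 expression of 35556 probe sets, made by the authors with RMA (background correction, quantile normalization and summary of probes) according to the submitters' processing notes; its version was not given in the sources used here. Because RMA pulls all arrays to a common distribution, each change is relative to the bulk of probe sets. Arrays have no read depth, and the precision is limited by the number of arrays.

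Groups were taken from the labels. Probe sets were named through the platform annotation: 21789 name 1 gene, 1621 name several and 12146 were not named here. All 77 members matched a RefSeq gene. The brightest single-gene probe set stood for a gene. Differences were tested with a linear model and empirical Bayes moderation (limma 3.58.1 in R 4.3.3), fitted on all 6 arrays and all probe sets, with Benjamini-Hochberg adjustment over all of them and a threshold of 0.05. The script was also run on simulated data. Tables and plots were made in Python 3.11.15 with pandas 2.3.3 and matplotlib 3.10.9. Members, gene lists and tests were chosen with earlier results of these data known.

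Genes were named by a rule: up to 8 called members per subunit and direction with the largest change, the 3 brightest and 2 dimmest of each subunit, members whose probe sets differ in their call, the Mrps18 paralogs, and up to 4 called genes of each related list. Mrpl14, Mrpl12, Mrps11, Dap3, Ptcd3, Chchd1, Tufm, Gatb, Qrsl1, Hsd17b10, Prorp and genes named as neighbours were added after their values had been seen. Alternatives tried were a further quantile step, arrays centred on their median, a filter at the 40th percentile of signal, variances with a trend and robust to outliers, weights for arrays, a block for the replicate number, averaging over the probe sets of a gene, an adjusted p under 0.01, and each array left out in turn. Subunits were also assigned by structure in place of symbol. Motifs were searched in RefSeq promoter windows of the build GRCm38.p6.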

Additional observations from a re-analysis of the deposited data

How the results depend on the processing

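In all fits run for the 18 called members their direction held, and 8 of them (Mrpl20, Mrpl23, Mrpl32, Mrpl34, Mrpl58, Mrps22, Mrps33 and Mrps35) kept their call in each of 13 alternatives, while 10 lost it in at least 1. Centring ended the calls of Mrpl14, Mrpl38, Mrpl39, Mrpl45, Mrpl51, Mrps2, Mrps21 and Mrps31, and the block those of Mrpl14, Mrpl2, Mrpl38, Mrpl45, Mrpl46, Mrpl51, Mrps2 and Mrps31. In the large subunit 9 genes fell and 3 rose. Genes that fell numbered 4 with centred arrays, 17 without dim probe sets, 14 with a trended and robust variance and 19 with array weights. They numbered 3 at an adjusted p under 0.01, and 3 to 17 with 1 array left out, the highest without shPARP2 replicate 2. Of all genes 8.73% fell with centred arrays, 12.9% with the trended and robust variance and 16.3% with array weights. With 1 array left out 6.42% to 13.6% of all genes fell, and without dim probe sets 20.1% of the 13351 genes left. The share of all genes at an adjusted p under 0.01 was not counted. Genes that rose numbered 5 without dim probe sets, 5 with the trended and robust variance and 2 to 4 with 1 array left out. In the small subunit 4 genes fell and 2 rose. Genes that fell numbered 2 with centred arrays, 7 with array weights, 2 at an adjusted p under 0.01 and 2 to 7 with 1 array left out. Genes that rose numbered 1 with centred arrays, 1 at an adjusted p under 0.01 and 1 whichever array was left out. The median log2 fold change of the small subunit lay between -0.075 and -0.023 with 1 array left out, the latter without scPARP2 replicate 2, and that of the large subunit between -0.18 and -0.07. With subunits assigned by structure instead of symbol, 9 large subunit genes fell and 3 rose, and 4 small subunit genes fell and 2 rose. The medians were then -0.10 and -0.06. In the related lists 14 genes fell and 11 rose. Genes that fell numbered 6 with centred arrays, 23 with array weights and 4 to 18 with 1 array left out, and genes that rose 5 to 12. The array weights were lowest for shPARP2 replicate 2 (0.292) and replicate 3 (0.402). The cause of these changes was not tested.

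The replicate numbers did not pair the samples: deviations from the group means correlated across probe sets with r = -0.05, 0.09 and 0.01 between same-numbered arrays. With the replicate number as a block, 4 large subunit genes fell and 2 rose, 3 small subunit genes fell and 1 rose, and in the related lists 9 fell and 7 rose. Of all genes, 1660 fell and 1790 rose with the block, beside 2308 and 2469 without it.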
